A study of Mus musculus with 8 samples.

Results

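Alternative promoters were examined in the 2969 protein-coding genes whose most upstream and most downstream transcription start sites (TSSs) lie at least 10 kb apart, out of 21410 protein-coding genes on mouse chromosomes 1 to 19 (13.9%). The members were found from the GENCODE vM1 annotation of the mm9 genome alone, using every protein_coding transcript, and no peak entered the choice. The promoter of each end, taken as the 1 kb before its start and the 0.5 kb after it, gave 5938 regions in which peak midpoints were counted.

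The peaks came from chromatin immunoprecipitation and sequencing (ChIP-seq) of trimethylated H3K4 (H3K4me3), acetylated H3K9 (H3K9ac), trimethylated H3K27 (H3K27me3) and trimethylated H3K36 (H3K36me3) on micrococcal nuclease-digested chromatin. The tissue was Lewis lung carcinoma (LLC) grown to about 500 mm3 under the skin of female C57BL/6J mice that were between 6 and 8 weeks of age when bought. LLC-NR tumors respond to VEGF-Trap, a decoy receptor that blocks VEGF, and LLC-R tumors arose from cells of the same carcinoma carried through mice under VEGF-Trap until they resisted it. Each line and mark had 1 library, 8 in all, so no difference between LLC-NR and LLC-R had a replicate check, no test between them was possible, and a change of line cannot be told apart from a change of library. Whole isografts also hold host vessels, stroma and leukocytes.

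Many mammalian genes can be transcribed from more than 1 promoter, and the choice of start sets the leader and often the N-terminus of the protein. H3K4me3 and H3K9ac mark the nucleosomes that flank active starts, and CpG-rich promoters usually carry H3K4me3 even when the gene is weakly expressed. H3K36me3 is laid down behind elongating RNA polymerase II, over the body of a transcribed gene and away from its active start. H3K27me3 is the mark of Polycomb repression.

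The genomic ends of these genes differed in sequence. CpG-rich promoters (HCPs, with a 500-bp interval of at least 55% G+C and a CpG observed/expected ratio, O/E, of at least 0.6) made up 68.5% of upstream ends (95% exact binomial interval, 66.8 to 70.2) and 10.8% of downstream ends (9.72 to 12). Among the 18441 other genes, 53.4% of promoters were HCPs. CpG-poor promoters (LCPs, with no interval reaching an O/E of 0.4) made up 16.0% of upstream and 50.8% of downstream ends, and the rest were intermediate (ICPs). Mean CpG O/E was 0.563 ± 0.251 (SD over genes, n = 2969) upstream and 0.274 ± 0.155 downstream. The commonest pair was an HCP upstream with an LCP downstream, in 1040 genes, followed by an HCP with an ICP in 824, whereas 78 genes had the reverse order of an LCP upstream and an HCP downstream.

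The contrast is shown by 3 genes, for which 150 bases that end 10 bases before each start are printed below from the mm9 reference, with CpG dinucleotides in capitals and each strand that of the gene. Mitf, the master regulator of melanocytes, and Notch1, a receptor of cell-cell signalling that acts in vessel sprouting, carried H3K4me3 mainly at the same end in both lines. Slc34a2, a sodium-phosphate cotransporter of lung and intestinal epithelium, has the largest change of preferred end from downstream in LLC-NR to upstream in LLC-R. None of these 6 stretches overlaps an annotated exon.
Mitf upstream, chr6:97756892-97757041, + strand, HCP: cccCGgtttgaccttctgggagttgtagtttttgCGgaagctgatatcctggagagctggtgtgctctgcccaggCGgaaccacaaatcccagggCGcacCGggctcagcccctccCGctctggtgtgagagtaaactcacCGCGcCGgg
Mitf downstream, chr6:97941626-97941775, + strand, ICP: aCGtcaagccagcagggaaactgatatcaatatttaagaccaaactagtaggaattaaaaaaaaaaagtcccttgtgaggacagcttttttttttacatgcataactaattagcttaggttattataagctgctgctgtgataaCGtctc
Notch1 upstream, chr2:26372194-26372343, - strand, LCP: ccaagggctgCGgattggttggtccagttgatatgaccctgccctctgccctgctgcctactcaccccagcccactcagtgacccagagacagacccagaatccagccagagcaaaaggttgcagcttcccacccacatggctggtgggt
Notch1 downstream, chr2:26359353-26359502, - strand, HCP: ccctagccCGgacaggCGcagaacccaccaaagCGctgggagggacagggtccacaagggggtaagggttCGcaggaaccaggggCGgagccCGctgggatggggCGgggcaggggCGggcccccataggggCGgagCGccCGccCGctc
Slc34a2 upstream, chr5:53429161-53429310, + strand, LCP: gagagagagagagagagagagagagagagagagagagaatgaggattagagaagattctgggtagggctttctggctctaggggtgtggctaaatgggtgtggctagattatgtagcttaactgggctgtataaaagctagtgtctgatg
Slc34a2 downstream, chr5:53449235-53449384, + strand, LCP: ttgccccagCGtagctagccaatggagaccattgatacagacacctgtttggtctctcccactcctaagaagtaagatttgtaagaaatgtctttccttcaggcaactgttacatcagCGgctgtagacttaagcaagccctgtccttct
The Mitf stretches hold 9 CpGs upstream and 2 downstream, those of Notch1 hold 1 and 12, and those of Slc34a2 hold 0 and 2. Across all members, 200 bases before each start were searched on both strands for short promoter motifs. The GC-box core GGGCGG was found before 50.3% of upstream and 11.4% of downstream starts, against 38.8% of all protein-coding genes. CCAAT was found before 29.0% and 23.4%, against 30.2%, and TATAAA before 5.56% and 11%, against 10.1%.

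The starts lay 36.1 kb apart in the median gene (quartiles 18.8 and 86.4 kb) and 2910 kb apart in Fgfr2, the widest. There were 732 genes with exactly 2 starts. The downstream start was inside an exon of another transcript of the gene in 1601 genes (53.9%) and inside an intron in 1364 (45.9%). The start used by most transcripts lay within 500 bp of the upstream end in 2583 genes (87.0%) and of the downstream end in 161. Annotation of the downstream ends was weaker, since 970 of them rest only on transcripts tagged as incomplete at their 5′ end, against 29 upstream ends. At least 1 end held no peak in any of the 8 libraries in 76 genes, and these genes were kept.

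Libraries held between 5660458 and 9101721 peaks, each 147 bp wide and none overlapping its neighbour, and the files give no height. The fullest promoter held 9 peaks and the fullest 1.5-kb stretch of background 10, and every level below is a number of peaks. The H3K4me3 libraries were nearly equal in size, with 5678337 peaks in LLC-NR versus 5660458 in LLC-R. The LLC-R libraries of H3K27me3 and H3K36me3 held more peaks than those of LLC-NR (9101721 against 7245090, and 8747519 against 6432447). The background was 1302359 tiles of 1.5 kb at least 5 kb from any annotated start, and 1111160 pairs of such tiles 36 kb apart. Among promoters of leukocyte marker genes (8 of 8 measured), H3K4me3 averaged 5.38 peaks (range 2 to 7) in LLC-NR and 4.12 (1 to 6) in LLC-R. Endothelial markers (7 of 7) gave 4.57 (3 to 6) and 4.14 (2 to 7), fibroblast markers (6 of 6) gave 5 (4 to 6) and 4.50 (3 to 6), and lung epithelial markers (7 of 7) gave 4.43 (2 to 6) and 4.71 (3 to 6). Means over all protein-coding genes, at the start used by most transcripts, were 4.97 and 4.66. These lists thus stood at about the level of other promoters. Fewer cells of a type and less of a mark per cell cannot be told apart in such tissue.

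H3K4me3 marked the upstream start and, on average, hardly marked the downstream start. In LLC-NR, the upstream promoter held 5.45 ± 1.79 peaks (SD over genes, n = 2969) and the downstream promoter 3.95 ± 1.68, with 3.28 ± 1.65 in tiles. In LLC-R, the values were 5.07 ± 1.64, 3.99 ± 1.58 and 3.29 ± 1.59. The upstream promoter held more peaks in 68.3% of genes in LLC-NR (66.6 to 70.0) and in 61.4% in LLC-R (59.7 to 63.2). The downstream promoter held more in 17.2% and 20.3%. In tile pairs each side held more in 39.8% of pairs in LLC-NR versus 39.6% in LLC-R. The 105 genes with starts 10 to 11 kb apart gave an upstream share of 59% in LLC-NR versus 60% in LLC-R, and 126 genes just outside the rule, at 9 to 10 kb, gave 66.7% and 54.8%.

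The upstream share was lowest among the nearest pairs of starts in both lines, although its interval overlaps that of the farthest pairs in each line. The upstream promoter held more H3K4me3 in 64.6% of the 811 genes with starts 10 to 20 kb apart in LLC-NR, in 71.4% of 972 at 20 to 50 kb, in 70.9% of 539 at 50 to 100 kb and in 66.3% of 647 beyond. The shares in LLC-R were 57.6%, 62.1%, 63.5% and 63.5%. Support for the downstream start went with the share. Where the downstream end rested only on 5′-incomplete transcripts (970 genes), the upstream end held more in 76.6% in LLC-NR versus 68.0% in LLC-R. Where a 5′-complete transcript set the downstream end (1999 genes), it held more in 64.3% and 58.2%, and the downstream end in 20.2% and 22.6%. Downstream starts inside an exon of another transcript gave an upstream share of 71.0% and 63.8%, and those inside an intron 65.1% and 58.5%.

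The other marks did not follow H3K4me3 along these genes. H3K9ac was slightly denser downstream, with 5.65 ± 1.58 peaks upstream and 5.83 ± 1.54 downstream in LLC-NR, versus 5.12 ± 1.48 and 5.38 ± 1.52 in LLC-R. H3K36me3 was denser downstream, with 3.09 ± 1.52 and 4.61 ± 1.83 peaks in LLC-NR, versus 4.95 ± 1.5 and 5.80 ± 1.52 in LLC-R. More H3K36me3 peaks lay in the downstream promoter in 67.1% of genes in LLC-NR versus 57.9% in LLC-R. H3K27me3 was denser upstream in LLC-NR, at 4.90 ± 1.70 against 4.30 ± 1.78, and about equal in LLC-R, at 5.72 ± 1.49 against 5.68 ± 1.51. These differences were smaller in the 2 LLC-R libraries with more peaks, and the part of peak number in that was not tested.

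Around the upstream start, H3K4me3 peaks rose to 6.03 per kb at +125 bp in LLC-NR and 5.07 per kb in LLC-R, next to a low of 2.86 and 2.75 per kb at +25 bp. H3K36me3 fell there to 1.23 per kb at -75 bp in LLC-NR and 2.01 per kb at -25 bp in LLC-R, below the 2.52 and 3.44 per kb of tiles. Around all downstream starts, no 50-bp bin of H3K4me3 exceeded 2.98 per kb in LLC-NR or 3.02 per kb in LLC-R. The 321 downstream HCPs differed from the other downstream ends. Their H3K4me3 peaks reached 4.98 per kb in LLC-NR and 5.92 per kb in LLC-R, both at +125 bp, the same bin as at upstream starts. Their H3K36me3 dipped to 1.12 per kb at -125 bp and 2.06 per kb at +25 bp. At downstream LCPs the highest H3K4me3 bin was 2.73 and 2.92 per kb and lay more than 1 kb before the start.

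**Figure D1:**
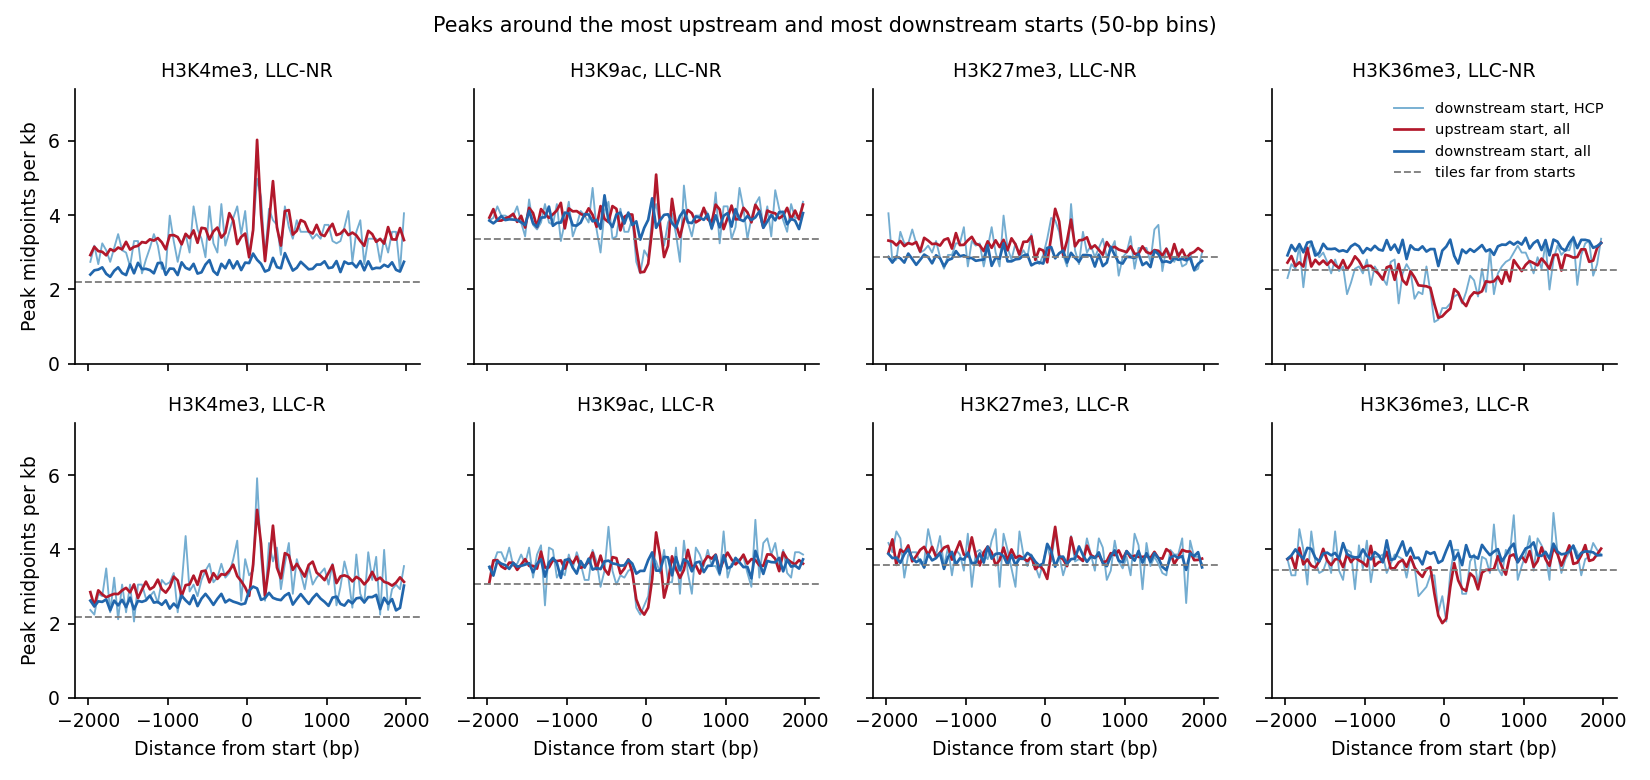
Peak midpoints per kb in 50-bp bins (y axis) against distance from the start in bp (x axis, gene direction), for each mark and line. Lines are means over all 2969 upstream starts, all 2969 downstream starts and the 321 downstream HCPs, and the dashed line is the mean of tiles far from starts. The H3K4me3 spike at +125 bp and the H3K36me3 dip appear at upstream starts and at downstream HCPs, and the mean of all downstream starts has no such spike and a shallower dip.

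Set beside the stretch between the 2 starts of the same genes, downstream promoters gave the same picture (2905 genes with at least 1 kb both between the starts and after the downstream start). Upstream HCPs held 4.06 ± 0.906 H3K4me3 peaks per kb in LLC-NR (SD over genes, n = 2001) against 2.63 ± 0.568 between the starts, and 94.4% of them were denser than that stretch. Downstream HCPs held 3.63 ± 1.28 (n = 318) against 2.53 ± 0.717, and 80.8% were denser. Downstream ICPs held 2.67 ± 0.964 (n = 1117) against 2.62 ± 0.549, and downstream LCPs held 2.40 ± 1.06 (n = 1470) against 2.50 ± 0.721, with 51.1% and 43.8% denser. In LLC-R, the shares were 90.3% for upstream HCPs, 83.3% for downstream HCPs, 53.5% for downstream ICPs and 50.8% for downstream LCPs. The mean difference from the stretch was -0.104 and 0.0193 peaks per kb at downstream LCPs in LLC-NR and LLC-R, and 1.10 and 0.940 at downstream HCPs.

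**Figure D2:**
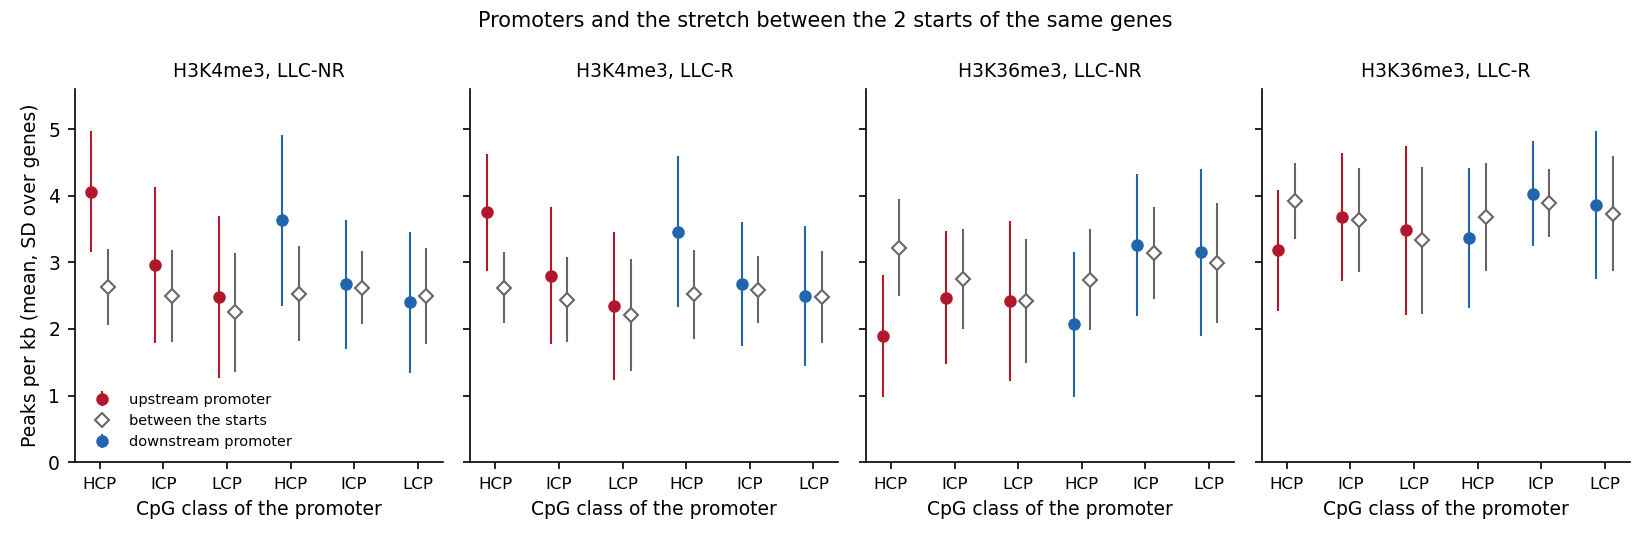
Peaks per kb (y axis, mean with SD over genes) in promoters of each CpG class (x axis) and in the stretch between the 2 starts of the same genes, for H3K4me3 and H3K36me3 in both lines. The left 3 classes of each panel are upstream and the right 3 downstream promoters, and HCPs at either end stand above the stretch in H3K4me3 and below it in H3K36me3.

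The CpG class of the ends went with the end that held H3K4me3. Of the 1118 genes with an HCP at 1 end and an LCP at the other, the HCP end held more peaks in 83.5% in LLC-NR (81.1 to 85.6) and in 72.5% in LLC-R (69.7 to 75.1), and the LCP end in 6.17% and 11.3%. The shares turned over with the order of the ends. In the 78 genes with the LCP upstream, the downstream HCP held more in 67.9% in LLC-NR (56.4 to 78.1) and 62.8% in LLC-R (51.1 to 73.5), whereas the upstream end held more in 12.8% in both lines. With an ICP upstream and an HCP downstream (72 genes), the downstream end held more in 59.7% and 68.1%. Where both ends were HCPs (171 genes), the upstream end held more in 45.0% and 39.2% and the downstream end in 30.4% and 33.3%. Where both were LCPs (260 genes), the shares were 48.1% and 40.0% upstream and 26.9% and 33.1% downstream.

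H3K36me3 lay at the other end. In the HCP and LCP pairs, the LCP end held more H3K36me3 peaks in 78.2% of genes in LLC-NR versus 68.1% in LLC-R, and with the LCP upstream it still held more in 60.3% and 47.4%, against 12.8% and 16.7% for the downstream HCP. H3K9ac was higher at the LCP end in 45.8% and 51.2% of the 1118 genes, and at the HCP end in 28.2% and 23.4%. H3K27me3 was higher at the HCP end in 51.8% in LLC-NR but in 33.4% in LLC-R, where the LCP end was higher in 36%. Across the 2969 genes, Spearman's rho between the difference in CpG O/E and the difference in peaks, upstream minus downstream, was 0.465 for H3K4me3 in LLC-NR versus 0.416 in LLC-R, and -0.505 and -0.440 for H3K36me3. For H3K9ac it was -0.146 and -0.159, and for H3K27me3 it was 0.0917 and -0.0737. Genes are not independent replicates, and both ends share a library and a local base composition.

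**Figure D3:**
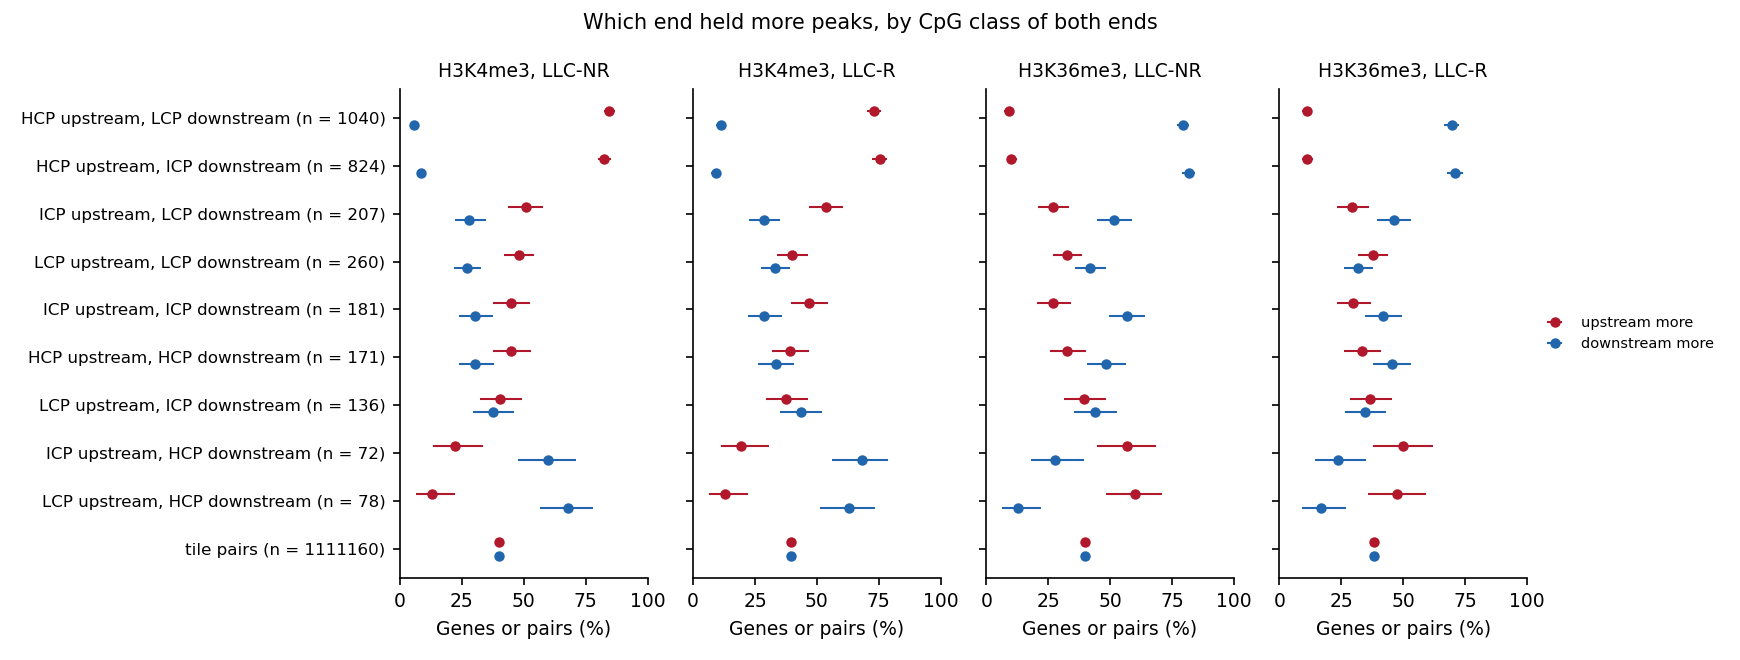
Share of genes (x axis, %, with exact binomial intervals that cover counting error only) in which the upstream or the downstream promoter held more peaks, by CpG class of both ends (y axis), for H3K4me3 and H3K36me3 in both lines, with tile pairs at the bottom. The order of the H3K4me3 points turns over where the HCP is the downstream end, and H3K36me3 mirrors it.

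Genes were next sorted by which ends reached the mean H3K4me3 level of all protein-coding genes (4.97 peaks in LLC-NR versus 4.66 in LLC-R). The mean was taken at the start used by most transcripts of each gene. Peak numbers are whole, so both means gave the same cut, which was not scaled to the lower mean of LLC-R. The part of this in the shares of the lines was not tested. Only the upstream end reached it in 1386 genes (46.7%) in LLC-NR and 1209 (40.7%) in LLC-R. Both ends did in 871 (29.3%) and 847 (28.5%), only the downstream end in 238 (8.02%) and 305 (10.3%), and neither in 474 (16.0%) and 608 (20.5%). In LLC-NR, the downstream end was an HCP in 28.2% of the downstream-only genes, in 20% of the genes with both ends and in 3.10% of the upstream-only genes. In LLC-R, the shares were 28.2%, 16.9% and 3.89%. Of the 1386 upstream-only genes of LLC-NR, 55.7% were upstream-only in LLC-R as well and 5.34% were downstream-only. Of the 238 downstream-only genes, 34.9% were again downstream-only and 15.1% were upstream-only. These turns between configurations were not set beside tile pairs.

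H3K36me3 between the starts, a readout the sorting did not use, was compared with the stretch after the downstream start. In LLC-NR, upstream-only genes held 3.22 ± 0.628 peaks per kb between the starts (SD over genes, n = 1364) and 3.38 ± 0.707 after, and genes with both ends held 3.31 ± 0.602 and 3.54 ± 0.663 (n = 848). Downstream-only genes held 2.71 ± 0.569 and 3.02 ± 0.725 (n = 234), and genes with neither end held 2.06 ± 1.02 and 2.20 ± 1.11 (n = 459). Tiles held 2.52 per kb. Among genes with a high end, both stretches were thus least marked where only the downstream start reached the mean H3K4me3 level, with SDs that overlap. In LLC-R, the values between the starts were 3.95 ± 0.357 in upstream-only genes, 4.03 ± 0.336 with both ends and 3.79 ± 0.389 in downstream-only genes, over tiles at 3.44, a narrower range in a library with more peaks. After the downstream start, the LLC-R values were 4.02, 4.14 and 3.93 in the same order. The stretch between the starts was denser than that after in 33.9% of the 2905 genes in LLC-NR versus 38.2% in LLC-R.

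In H3K4me3, the lines preferred different ends in 68 genes (2.29%), counting an end as preferred when it held at least 2 peaks more than the other. This share was below that of tile pairs, in which the lines differed in the same way in 4.46%. In 45 genes (1.52%, against 2.23% of tile pairs) the preference was upstream in LLC-NR and downstream in LLC-R, and in 23 (0.775%, against 2.23%) the reverse. Both lines preferred the upstream end in 901 genes (30.3%) and the downstream end in 98 (3.30%), against 9.87% of tile pairs for each side. Members thus leaned upstream, by a mean of 1.5 peaks in LLC-NR versus 1.08 in LLC-R, and tile pairs leaned to neither side. The rates of tile pairs were not matched to this lean. Among the 1067 genes with a preference in both lines, 6.37% had opposite preferences, against 18.4% of such tile pairs. The 68 genes are therefore a list of candidates from 1 library a line, at a rate no higher than the background. For H3K9ac the lines differed in 64 genes (2.16%, against 2.19% of tile pairs), for H3K27me3 in 105 (3.54%, against 2.09%) and for H3K36me3 in 80 (2.69%, against 2.61%). In H3K27me3, 90 of the 105 genes went from upstream in LLC-NR to downstream in LLC-R. The mean H3K27me3 difference between the ends also fell over all members, from 0.605 ± 1.81 peaks (SD over genes) in LLC-NR to 0.0448 ± 1.56 in LLC-R, the library with more peaks.

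**Figure D4:**
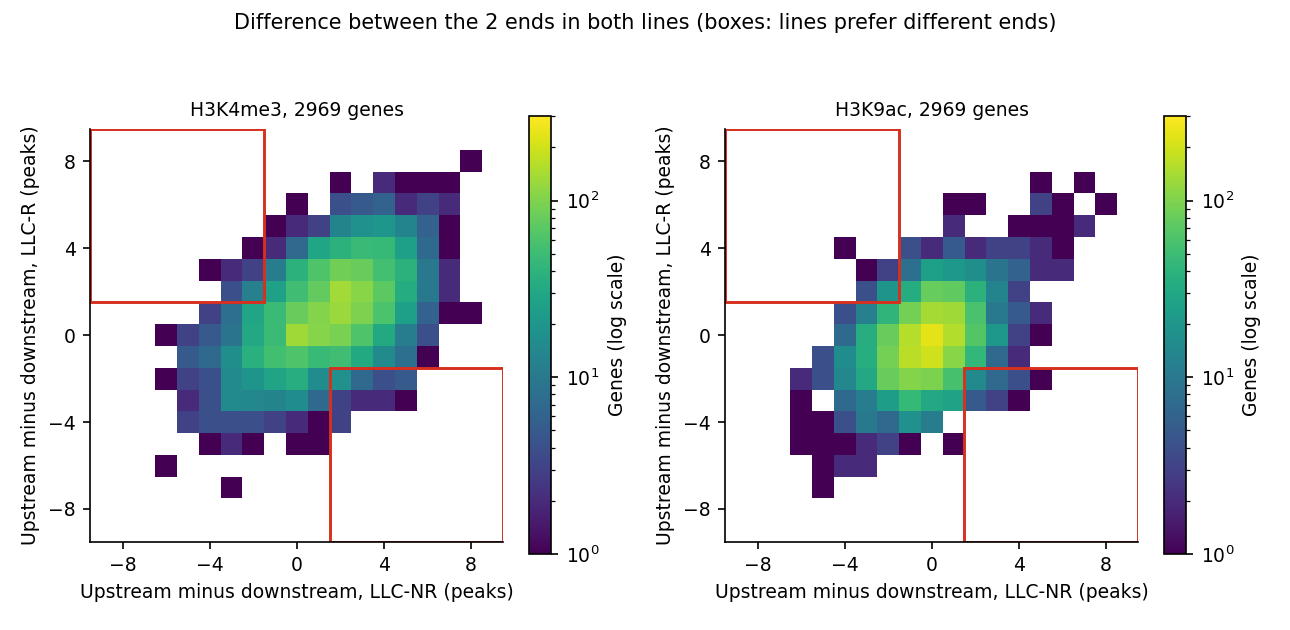
Number of genes (colour, log scale) by the difference between the upstream and the downstream promoter in LLC-NR (x axis, peaks) and in LLC-R (y axis, peaks), for H3K4me3 and H3K9ac over the 2969 genes. Red boxes hold the genes in which the lines prefer different ends, 68 for H3K4me3 and 64 for H3K9ac. The H3K4me3 cloud lies towards the upstream end in both lines.

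Of the 68 genes, 1 also had different ends in H3K9ac, against 2.16% of all members, a share near the background. It was Chrm2, a muscarinic acetylcholine receptor, and its marks turned in opposite directions. Among the 45 genes that went downstream in LLC-R, the H3K9ac difference moved the same way in 23 (51.1%, against 40.2% of all members), and among the 23 that went upstream it did in 11 (47.8%, against 36.7%). The upstream end was an HCP in 33 of the 45 (73.3%, 58.1 to 85.4) and in 5 of the 23 (21.7%, 7.46 to 43.7), against 68.5% of all members. Both groups were picked by the end preferred in LLC-NR, which went with CpG class in genes at large. In LLC-NR, the upstream end was an HCP in 83.7% of all upstream-only genes and 25.2% of all downstream-only genes. The downstream end was an HCP in 2 of the 45 and 1 of the 23. In 14 of the 45 and 5 of the 23, the downstream end rested only on 5′-incomplete transcripts.

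A change of at least 6 peaks was seen in 21 genes, 17 of them from upstream in LLC-NR to downstream in LLC-R and 4 the reverse. From these, 12 were described, all 9 with a change of 7 or 8 and 3 of the 12 with a change of 6. Ties at 6 went to the genes whose H3K9ac moved most in the same direction, and then by symbol. Among the tied genes left out, Klkb1, Rap1gap2 and Unc5d turned upstream in LLC-R. Rap1gap2 equalled the 3 described in its H3K9ac move, at 2 peaks, and was left out by symbol only. The upstream end was an HCP in 7 of the 12 described. Cdh13, which encodes T-cadherin, changed most. Its upstream promoter held 6 H3K4me3 peaks in LLC-NR versus 3 in LLC-R, and the downstream promoter, 953 kb away inside an intron, held 1 and 6. The difference between its ends thus went from 5 to -3, while H3K9ac was higher downstream in both lines, at 4 and 7 peaks in LLC-NR versus 3 and 7 in LLC-R. Slc34a2, with LCPs at both ends, turned the other way. Its upstream promoter (start at 53429321 of chromosome 5) held 0 H3K4me3 peaks in LLC-NR versus 6 in LLC-R, and the downstream promoter (start at 53449395, inside an exon) held 4 and 3. Neither end of Slc34a2 reached the mean H3K4me3 level in LLC-NR, and only the upstream end did in LLC-R. Its H3K9ac moved the opposite way, from 5 upstream and 6 downstream in LLC-NR to 3 and 6 in LLC-R.

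The other genes described here with a change of 7 peaks all had a CpG-richer or equal upstream class. Slc4a7, a sodium-bicarbonate cotransporter, held 7 upstream and 2 downstream H3K4me3 peaks in LLC-NR versus 4 and 6 in LLC-R. Its H3K9ac moved with it, from 7 and 6 to 5 and 7, the widest H3K9ac move in the same direction among the 12. Mtr, methionine synthase, and Prc1, a microtubule bundler of dividing cells, also held 7 and 2 peaks in LLC-NR versus 4 and 6 in LLC-R. In both of these, H3K9ac moved the other way, from 6 and 7 to 7 and 5 in Mtr and from 6 and 6 to 6 and 4 in Prc1. Slc4a7, Mtr and Prc1 lie on 3 chromosomes and share their H3K4me3 counts, as peak numbers of this size take few distinct values.

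Kcnu1, a potassium channel of sperm, held 6 and 1 H3K4me3 peaks in LLC-NR versus 3 and 5 in LLC-R, with ICPs at both ends. Adrbk1, a kinase that desensitizes G protein-coupled receptors, held 8 and 4 in LLC-NR versus 4 and 7 in LLC-R. Tfg, a protein of endoplasmic reticulum exit sites, held 7 and 3 in LLC-NR versus 4 and 7 in LLC-R. The downstream ends of Adrbk1, Prc1, Tfg and D730040F13Rik rest only on 5′-incomplete transcripts, and the downstream start lies in an exon of another transcript in all 4. D730040F13Rik held 7 and 3 peaks in LLC-NR versus 4 and 6 in LLC-R.

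Inpp5d encodes the phosphatase SHIP1 of blood cells, and LCPs lie at both of its ends. It held 7 upstream and 3 downstream H3K4me3 peaks in LLC-NR versus 3 and 5 in LLC-R, and its H3K9ac moved the same way, from 7 and 6 to 5 and 6. Leukocyte markers averaged 5.38 H3K4me3 peaks in LLC-NR versus 4.12 in LLC-R, and their part in the Inpp5d values was not tested. Psd3, an exchange factor for ARF6, held 5 and 3 in LLC-NR versus 2 and 6 in LLC-R. Of the 12 genes, H3K9ac moved in the same direction as H3K4me3 in 7 and in the opposite direction in 5, and the tie rule set the direction of the 3 genes with a change of 6.

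**Figure D5:**
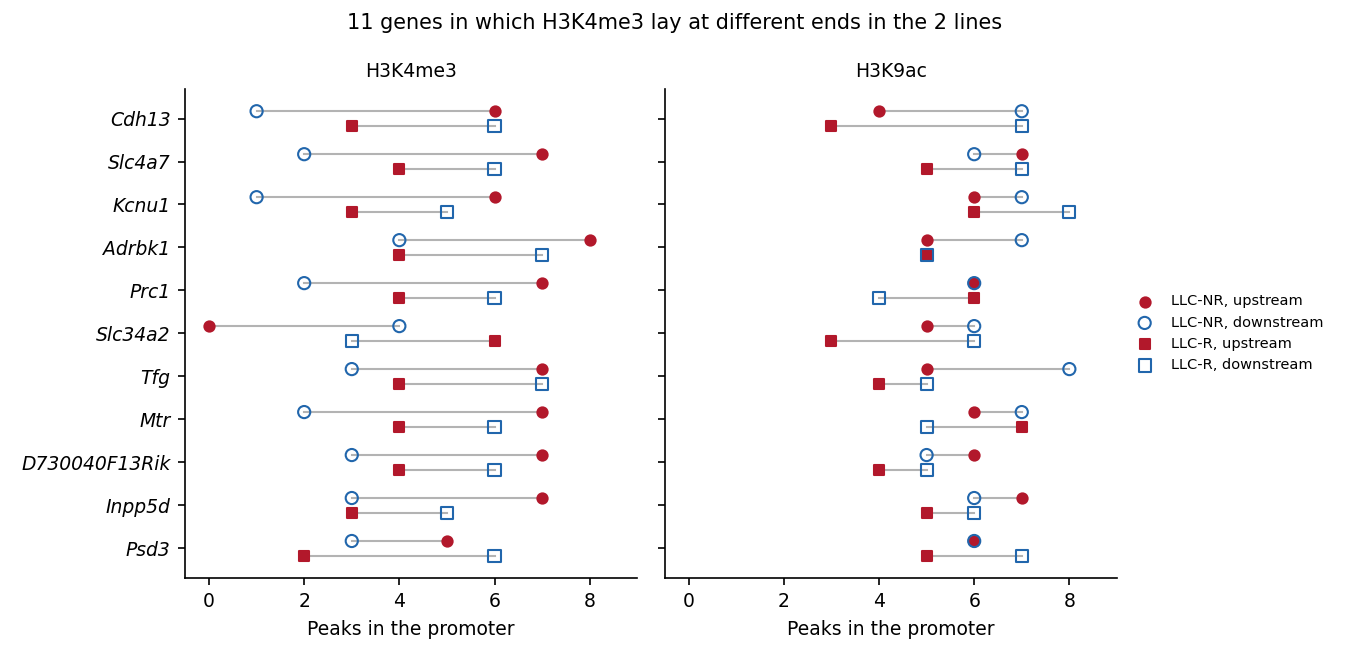
Peaks in the upstream (filled) and downstream (open) promoters of 11 of the 12 genes (y axis) in LLC-NR (circles) and LLC-R (squares), for H3K4me3 on the left and H3K9ac on the right (x axis, peaks per promoter, 1 library each). The H3K4me3 ends cross between the lines by construction, and the H3K9ac ends cross in Slc4a7, Mtr, D730040F13Rik and Inpp5d.

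The remaining 34 genes that went from upstream in LLC-NR to downstream in LLC-R had changes of 4 to 6 peaks. They were Dnm3, Galnt13, Nr2e1, Tln2, Ttc37, Zfp39, Adam32, Chrna7, Epc1, Lman2l, Lphn2, Mycbpap, Pkib, Plekhg1, Stard9, Zfp617, 5730403B10Rik, Cep120, Chrm2, Csmd3, Cyp2j13, Dlgap2, Fyb, Kalrn, Kcng1, Klra9, Mlxipl, Ncam1, Nlrp5, Rasa4, Rffl, Sdc3, Sh2d4b and Tmem39a. Of the remaining 22 that went the other way, 21 were Klkb1, Rap1gap2, Unc5d, Clca2, Grik2, Hpn, Kcnma1, Scn9a, Sntg1, Zbbx, Adarb2, B230118H07Rik, BC021785, Cmtm2a, Dgkb, Fbxo15, Hdac9, Odz4, Ptprt, Serhl and Srgn. Of the 68, 30 changed by 4 peaks, 17 by 5, 12 by 6, 8 by 7 and 1 by 8, where 4 is the least the rule allows.

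Members of 5 gene lists showed the order of the members at large, in which the upstream end held more H3K4me3 in 2029 of 2969 genes in LLC-NR versus 1824 in LLC-R, with median differences of 2 and 1 peaks. Of 36 transcription factors (of 49 listed genes on these chromosomes), 19 held more upstream and 12 downstream in LLC-NR, versus 19 and 10 in LLC-R. Of 27 cytoskeletal linkers (of 37), 17 and 4 did in LLC-NR versus 18 and 6 in LLC-R. Of 32 signalling enzymes (of 43), the counts were 24 and 5, then 21 and 6. Of 20 chromatin and metabolic enzymes (of 30), they were 13 and 6, then 14 and 4. Of 13 genes of VEGF signalling and angiogenesis (of 40), they were 9 and 2, then 9 and 3. The lines preferred different ends in 1 gene of these 5 lists, Hdac9, a class IIa histone deacetylase, with 4 upstream and 6 downstream H3K4me3 peaks in LLC-NR versus 5 and 3 in LLC-R.

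Among transcription factors, Mitf held 7 upstream and 2 downstream H3K4me3 peaks in LLC-NR versus 7 and 3 in LLC-R. Its starts lie 185 kb apart, and the form of melanocytes is known to begin at the last of its alternative first exons. Cux1, a homeodomain repressor, held 8 and 3, then 6 and 3. Etv6, an ETS repressor, held 6 and 2, then 7 and 3. Foxp1, a forkhead factor, was marked downstream, with 3 and 6 peaks in LLC-NR versus 1 and 5 in LLC-R. Its upstream end is an LCP and its downstream end an HCP, the reverse of Mitf, Cux1 and Etv6, whose upstream ends are HCPs.

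Among cytoskeletal linkers, Ank1, the ankyrin of the red cell membrane, held 6 and 2 H3K4me3 peaks in LLC-NR versus 5 and 1 in LLC-R, while its H3K9ac lay downstream, at 3 and 7, then 4 and 8. Ank3, ankyrin-G, held 7 and 4, then 7 and 3, with ICPs at both ends. Epb4.1l2, a band 4.1 protein, held 8 and 3, then 7 and 4. Lmo7, a protein of cell junctions, held 6 and 4, then 8 and 2. All 4 were higher upstream in both lines.

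Among signalling enzymes, Camk1d, a calmodulin-dependent kinase, held 8 and 3 H3K4me3 peaks in LLC-NR versus 7 and 5 in LLC-R. Map4k4, a kinase upstream of JNK, held 7 and 4, then 6 and 2, and Nedd4l, a ubiquitin ligase of ion channels, held 7 and 4, then 6 and 1. Rgs3, which speeds up GTP hydrolysis by G proteins, was marked downstream with 2 and 7, then 2 and 6, although its downstream end is an LCP and rests only on 5′-incomplete transcripts. Among chromatin and metabolic enzymes, Setd5, a SET-domain protein, held 7 and 3, then 7 and 1. Its H3K36me3 lay at the other end in both lines, with 1 peak upstream and 6 downstream in LLC-NR versus 1 and 7 in LLC-R. Pcx, pyruvate carboxylase, held 6 and 2 H3K4me3 peaks in each line, and Acsl6, an acyl-CoA synthetase, held 7 and 3, then 6 and 4. Pfkfb2, a regulator of glycolysis with an LCP upstream and an ICP downstream, held 1 and 6 in LLC-NR versus 5 and 6 in LLC-R.

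In the list of VEGF signalling and angiogenesis, Notch1 was marked downstream, with 4 and 7 H3K4me3 peaks in LLC-NR versus 3 and 6 in LLC-R. Its H3K36me3 was 1 peak at each end in LLC-NR versus 6 upstream and 3 downstream in LLC-R. The downstream start, 12.8 kb away, is the CpG-rich one, so the end named upstream by the annotation was not the end marked by H3K4me3. Efnb2, the arterial ligand ephrin-B2, held 6 and 4, then 7 and 1, and Smad3, which transmits TGF-beta signals, held 6 and 2, then 6 and 4. Fgfr2, a fibroblast growth factor receptor, held 6 and 0, then 6 and 2, across the widest distance of all members.

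The widest differences shared by both lines were of another kind in part. Fut8, Suclg2 and Tulp4 held 0 peaks of every mark at the downstream end in all 8 libraries, while upstream they held 8, 6 and 7 H3K4me3 peaks in LLC-NR versus 8, 7 and 6 in LLC-R. Nt5dc3 held 7 upstream and 0 downstream in both lines, and its downstream end held 1 H3K27me3 peak in LLC-NR and no peak in the other 7 libraries. Zfp386 held 0 at the upstream end in all 8 libraries and 5 and 4 H3K4me3 peaks downstream, and Syt11 held 0 and 6 in each line, with 1 peak of H3K9ac and 1 of H3K36me3 upstream. Ends with no peak of any mark in any library differ from the other ends of these genes by more than 1 mark, and the cause was not tested. Taf4b, a subunit of TFIID, held 8 and 1 peaks in LLC-NR versus 8 and 2 in LLC-R. Iffo2, with an HCP downstream and an LCP upstream, held 3 and 7, then 2 and 7, and Lman1, a cargo receptor of the secretory pathway with an HCP downstream, held 4 and 9, then 4 and 8. In these last 3 genes the other marks were present at both ends, save that Iffo2 held 0 H3K36me3 peaks downstream in LLC-NR.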

How the data were processed

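The authors aligned ChIP-seq reads of each library to mm9 with Bowtie 0.12.7 (per the submitters' processing notes), kept uniquely mapped reads and fitted nucleosome-sized peaks with GeneTrack, whose settings are not given in the sources used here. The deposited files hold only peak positions, each peak 147 bp wide, with no count of reads, height or score. The reads behind each single peak are therefore unknown. The authors list the uniquely mapped reads of each library, with more in LLC-R than in LLC-NR for H3K27me3 and H3K36me3. For H3K4me3 and H3K9ac they list fewer in LLC-R. The part of read number in the peak counts was not tested.

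For the re-analysis, peak midpoints were counted in promoters of 1 kb upstream and 0.5 kb downstream of each start with Python 3.11.15, NumPy 2.4.6, pandas 2.3.3 and SciPy 1.17.1, and drawn with Matplotlib 3.10.9. Starts came from GENCODE vM1, and reference sequence from mm9. An end was preferred when it held at least 2 peaks more than the other. The stretch between the starts began 1 kb after the upstream start and ended 1.5 kb before the downstream start, and the stretch after began 1 kb after the downstream start. Shares carry 95% exact Clopper-Pearson intervals that cover counting error only. With 1 library per line and mark, no test between lines was made. The counting was tested on simulated peaks. Named were the 12 genes whose ends changed most in H3K4me3 between the lines, chromosome 18 left out and ties ordered by the H3K9ac change in the same direction and then by symbol, then 4 genes per list with the largest H3K4me3 difference of the same sign in both lines, any list gene with different ends, and the 5 genes with the largest shared difference towards each end. The 3 genes whose sequences are shown, and the rest of the 68 names, were chosen after their values were seen. The members, lists and rules were chosen with earlier results of these data known. Alternatives varied the promoter window, peak overlap, distance, transcripts, CpG window, thresholds and margins. Chromosomes X and Y were not analysed here, and 2 of the 68 genes are not reported here by name.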

Additional observations from a re-analysis of the deposited data

Results flagged for a closer look

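In 12 named genes, LLC-NR and LLC-R preferred opposite ends in H3K4me3. This was not tested, since each line had 1 library, and 4.46% of tile pairs away from starts did the same. Each value is the difference between the ends, upstream minus downstream, in LLC-R minus that in LLC-NR, in peaks. Cdh13 changed by -8. Slc4a7, Kcnu1, Adrbk1, Prc1, Tfg and Mtr changed by -7 each, and Slc34a2 by 7. D730040F13Rik, Inpp5d and Psd3 changed by -6 each, and Hdac9 by 4.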

How the results depend on the processing

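No paired analysis was possible because each line and mark had 1 library. Of 110 alternative values, 70 moved by less than their counting interval (counts of genes, by less than 1.5 times) and 40 moved. Among the shares whose direction was checked, none changed direction. Configuration shares and counts of genes had no check of direction. The cause of each move was not tested. With promoters of 0.5 kb on each side, the upstream end held more H3K4me3 in 63.4% (LLC-NR) and 58.1% (LLC-R) of genes. The HCP end held more in 77.0% and 68.9% of HCP and LCP pairs, and 48.5% of genes were upstream-only in LLC-NR. The lines then differed in 27 genes for H3K4me3, 30 for H3K9ac, 51 for H3K27me3 and 31 for H3K36me3. These were 0.909, 1.01, 1.72 and 1.04% of the 2969 genes, and tile pairs were not recounted at this width. With any overlap of a peak counted, the upstream share was 70.0% and upstream-only genes were 50.3% in LLC-NR. With starts at least 20 kb apart, upstream-only genes were 48.9% in LLC-NR. Among the 253 genes whose ends both had a second transcript, the upstream share was 62.5% in LLC-NR (62.8% in LLC-R, so no longer lower there). The HCP end held more in 79.8% in LLC-R, upstream-only genes were 41.1% in each line and downstream-only genes 11.5% in LLC-R. The lines differed in 8, 6, 10 and 5 of these genes for H3K4me3, H3K9ac, H3K27me3 and H3K36me3 (3.16, 2.37, 3.95 and 1.98%). The shares over all 2969 genes were 2.29, 2.16, 3.54 and 2.69%, and those of tile pairs 4.46, 2.19, 2.09 and 2.61%. These counts are lower in a smaller set, whatever the share. Without 5′-incomplete transcripts, an alternative chosen after seeing the data (2263 genes), the upstream share was 64.5% (LLC-NR) and 59.3% (LLC-R), upstream-only genes were 43.9% in LLC-NR, and downstream-only genes 9.24% and 11.5%. Counting only differences of at least 2 peaks, the upstream share was 53.1% and 41.6%. With CpG classes from 0.5 kb before to 2 kb after each start, the HCP end held more in 80.0% in LLC-NR. With the threshold 1 peak above the mean, upstream-only genes were 48.7% and 36.8%, and downstream-only genes 8.76% in LLC-R. A margin of 1 peak gave 378, 506, 628 and 439 genes on different ends for the 4 marks in the same order (12.7, 17, 21.2 and 14.8%, against 21.0, 16.5, 16.4 and 17.6% of tile pairs), and a margin of 3 gave 8, 6, 8 and 7 (0.269, 0.202, 0.269 and 0.236%, against 0.503, 0.137, 0.121 and 0.182%). With the body taken to 5 kb after the downstream start, H3K36me3 was denser between the starts in 35.8% of genes in LLC-NR. Peaks have no heights and no promoter held more than 9, and no statement on a change between the lines rests on more than 1 library of each.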

Other observations

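Beyond H3K4me3, genes marked only at the downstream end held the most H3K27me3 both between their starts and after the downstream start. In LLC-NR, they held 3.39 ± 0.743 H3K27me3 peaks per kb between the starts (SD over genes, n = 234), against 2.75 ± 0.778 in upstream-only genes (n = 1364), 2.90 ± 0.799 with both ends (n = 848) and 2.88 in tiles. In LLC-R, the values were 3.94 ± 0.447 (n = 300), 3.80 ± 0.387 (n = 1178), 3.81 ± 0.379 (n = 839) and 3.59. After the downstream start, the values in LLC-NR were 3.17 in downstream-only genes, 2.73 in upstream-only genes and 2.76 with both ends. In LLC-R they were 3.88, 3.80 and 3.79, so the higher level was not particular to the stretch between the starts. The ranges of 1 SD overlap in each line.

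The agreement of the lines over the ends differed between marks. Spearman's rho between the lines, over the difference of the ends in 2969 genes, was 0.468 for H3K4me3, where tile pairs gave 0.384. It was 0.317 for H3K9ac, 0.233 for H3K27me3 and 0.439 for H3K36me3, where tile pairs gave 0.533, 0.520 and 0.494. Among genes with a preference in both lines, 64 of 389 (16.5%) had opposite H3K9ac preferences and 105 of 400 (26.2%) opposite H3K27me3 preferences, against 8.79% and 8.73% of such tile pairs. Tiles were not matched to promoters in the spread of their counts. In LLC-NR, the SD over tiles was 1.94 for H3K9ac and 1.96 for H3K27me3. It was 1.58 and 1.70 at upstream promoters and 1.54 and 1.78 at downstream promoters. The part of this in the lower agreement of the members was not tested. These are descriptions across genes that share a library, and genes are not independent replicates.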
